A study of Mus musculus with 6 samples.

Results

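Matricellular and adhesive matrix glycoproteins are the genes described here: periostin (Postn), transforming growth factor β-induced protein (Tgfbi), tenascin C (Tnc), fibronectin (Fn1), thrombospondins 1 and 2 (Thbs1, Thbs2), osteonectin (Sparc), the SPARC-related proteins Smoc1 and Smoc2, and osteopontin (Spp1). They were found by gene symbol in the deposited count table, which gave 1 row each and 10 of 56748 genes in all, and each of the 10 was among the 17717 genes with enough counts to test. The set was chosen from results of these same libraries, with the col1-ACLP against col1 values already known, so for these 10 genes that comparison is given as a description and nothing is inferred from it. RNA was sequenced from mouse primary stromal cells plated on collagen carrying aortic carboxypeptidase-like protein (col1-ACLP, n = 3 libraries) or on collagen alone (col1, n = 3), a comparison that asks which genes respond to ACLP held in a collagen matrix. ACLP, the product of Aebp1, is a secreted protein that binds fibrillar collagen.

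All libraries shared a wild-type genotype (labelled WT), the strain C57B1/6 as the labels spell it, and donors of both sexes aged 12 weeks. Gonadal white fat was digested for its stromal vascular fraction, a mixture of cell types, which was plated without prior expansion on 12 kPa plates and kept for 48 h in DMEM with fetal bovine serum. Type I collagen coated the plates at 0.05 mg/mL. The col1-ACLP coating was polymerized with 30 nM recombinant ACLP (rACLP, a tagged protein purified from the human-derived AD293 line) and the col1 coating with none. The labels do not say whether libraries of a group came from separate animals or cultures, so the errors and p-values below cover only library-to-library spread and that spread may be technical, although the study calls them biological replicates.

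Matricellular proteins are secreted into the extracellular matrix without forming its main fibers. They tune how cells attach to collagen and fibronectin, chiefly through integrins, and how growth factors such as TGFβ are stored and released. Many are scarce in resting adult tissue and abundant in wounds, developing tissue and fibrosis, and in fat they are made largely by stromal cells, with osteopontin also made by macrophages. Fibronectin differs in that it does assemble fibrils, onto which collagen and several of the others are laid.

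Upstream sequence is shown for Postn and Tnc, which had the largest differences among the genes with an entry in the RefSeq promoter table (GRCm38.p6), and for Tgfbi, the closest relative of Postn in the set. Entries were found for 6 of the 10 genes: Postn, Tgfbi, Tnc, Thbs2, Sparc and Spp1. Each window runs from 250 bases before the annotated start to 50 bases after it, reads 5′ to 3′ on the gene's strand, and was located by exact match in GRCm39, at chr3:54268278-54268577 (plus strand) for Postn, chr4:63965203-63965502 (minus strand) for Tnc and chr13:56757149-56757448 (plus strand) for Tgfbi. Capitals mark TATAAA, the core of a TATA box, and GTCTG, a SMAD box bound by the transcription factors of the TGFβ pathway, on either strand.

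Postn: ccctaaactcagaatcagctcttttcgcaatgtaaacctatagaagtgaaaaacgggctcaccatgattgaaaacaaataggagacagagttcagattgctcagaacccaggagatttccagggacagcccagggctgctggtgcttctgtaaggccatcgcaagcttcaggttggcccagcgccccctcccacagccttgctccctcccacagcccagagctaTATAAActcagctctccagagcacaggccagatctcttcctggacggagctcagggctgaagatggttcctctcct
Tnc: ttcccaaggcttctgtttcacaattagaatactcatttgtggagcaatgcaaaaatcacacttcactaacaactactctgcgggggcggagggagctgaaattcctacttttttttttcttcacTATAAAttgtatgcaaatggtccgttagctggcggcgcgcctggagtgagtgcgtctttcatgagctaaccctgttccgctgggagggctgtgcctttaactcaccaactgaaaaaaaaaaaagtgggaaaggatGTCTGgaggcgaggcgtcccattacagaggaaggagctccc
Tgfbi: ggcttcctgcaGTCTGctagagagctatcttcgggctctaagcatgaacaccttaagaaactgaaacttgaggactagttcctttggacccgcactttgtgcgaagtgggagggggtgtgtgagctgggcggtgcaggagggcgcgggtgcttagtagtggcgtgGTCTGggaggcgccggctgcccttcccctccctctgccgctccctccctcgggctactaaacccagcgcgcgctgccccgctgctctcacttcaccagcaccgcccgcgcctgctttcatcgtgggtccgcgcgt

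The Postn window holds TATAAA at -26 to -21 from the start and no GTCTG. The Tnc window holds TATAAA further out, at -126 to -121, and GTCTG at 10 to 14 past the start. That annotated start of Tnc lies 191 bases inside the first base of the canonical GENCODE transcript, whereas those of Postn and Tgfbi lie within 31 bases. The Tgfbi window has no TATA box match, holds GTCTG at -239 to -235 and at -85 to -81, and a GC content of 63.3%, against 53.0% for Postn, 47.3% for Tnc and a median of 52.7% over all windows. TATAAA on either strand was present in 4 of the 6 windows (Postn, Tnc, Thbs2 and Spp1) and in 13.6% of the 32851 windows in the table. In Thbs2 it lay at -126 to -121 on the opposite strand and in Spp1 at -211 to -206, so only that of Postn was close to the start. The annotated start of Spp1 lies 812 bases from the canonical one. GTCTG was present in 5 of the 6, all but Postn, and in 49.6% of all windows. GGGCGG, a GC box, was in 2 of the 6 (Tnc and Tgfbi) and 35.7% of all. None of the 6 held TGANTCA (AP-1, in 7.81% of all windows), TGACGTCA (CRE, 1.79%), CATTCC (MCAT, the TEAD motif, 14.7%) or a CArG box (the SRF motif, 1.63%). The AP-1 and CRE motifs read the same on both strands, and a CArG box can contain the TATA box letters. A match describes letters and not a bound site, and a window without one says nothing about the factor.

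Library totals ranged from 37389976 to 45155866 counts on col1-ACLP and from 33343651 to 47142754 on col1. Levels are given as CPM, the counts scaled to a common library total after correction with a trimmed mean of M-values (TMM) factor, which lay between 0.9785 and 1.020. On that scale 3 counts, the detection floor, equal 0.0624 to 0.0889 CPM. The lowest count of any of the 10 genes was 252, for Smoc1, where counting error alone is 6.3%, and for the others the lowest was 1257. In edgeR's quasi-likelihood fit over all 17717 genes, a call (raised or lowered) required both an adjusted p below 0.05 and a log2 fold change of more than 0.58 in size. Fold changes are col1-ACLP over col1. Their SE were worked back from the test statistic of that fit, and the 95% intervals were built on those SE.

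The plot of CPM in each library shows the values from which the following descriptions are drawn.

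**Figure D1:**
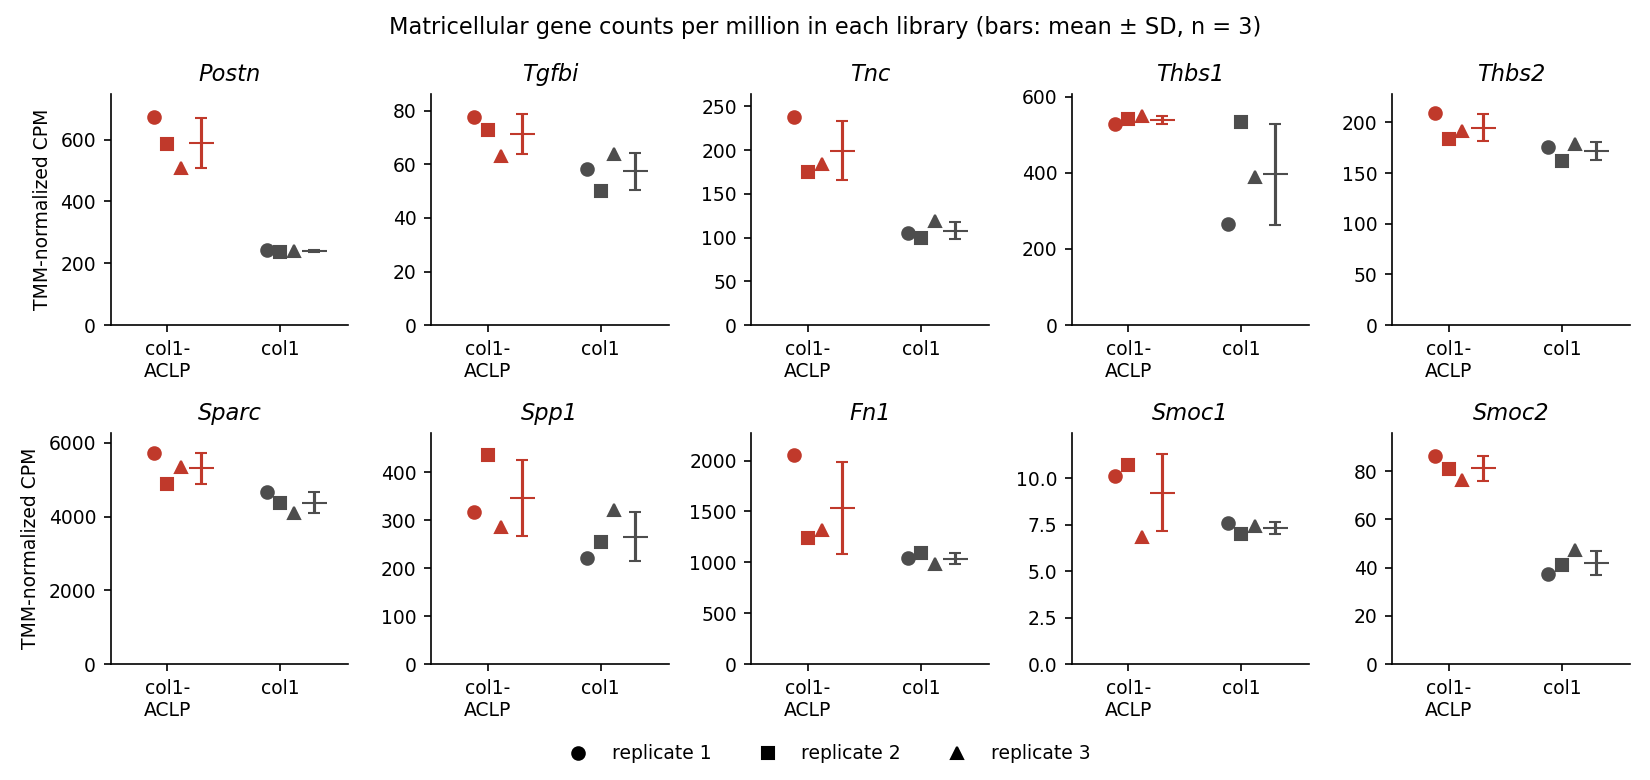
CPM (TMM-normalized, vertical axes from 0) of the 10 genes in the 3 col1-ACLP libraries (red) and the 3 col1 libraries (grey), with symbols for replicates 1 to 3 and bars for the mean ± SD. Postn, Tnc and Smoc2 are separated by wide gaps, Thbs1 spreads from 265.5 to 532 CPM on col1, and Fn1 on col1-ACLP is drawn up by replicate 1.

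Of the 10 genes, 3 were called raised (Postn, Tnc and Smoc2) and 0 were called lowered, where 0.66% of all tested genes were called raised and 0.722% lowered. On the adjusted p alone the same 3 were past the threshold and higher, against 0.931% of all tested genes. That count was 4 by DESeq2 and by limma-voom, which add Fn1, short of the fold threshold. It was 6 with no filter on low counts, which adds Fn1, Thbs1 and Spp1, all short of the fold threshold. The unfiltered fit gave Fn1, Thbs1 and Spp1 nearly the same SE (0.110, 0.110 and 0.111), against 0.146, 0.167 and 0.150 with the filter. It thus took little account of how their spread between libraries differed. In 6 of the 10 (Postn, Tnc, Smoc2, Fn1, Sparc and Thbs2) every col1-ACLP library lay above every col1 library, against 10.2% of tested genes. The fitted log2 fold change was above 0 for all 10, from 0.18 for Thbs2 to 1.29 for Postn, with a median of 0.41, whereas over all tested genes the median was 0.0076 and 51.1% were above 0. Because the genes were picked with this comparison known, these counts are not evidence about them as a class. In bulk RNA a change in the share of a cell type and a change in RNA per cell cannot be told apart, which holds for every value below.

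Periostin and its relative Tgfbi are built of repeated fasciclin domains, bind αv integrins, and are both known as genes induced by TGFβ. Postn (ENSMUSG00000027750, chr3:54268530-54298458, plus strand, 21 exons in the canonical transcript) had 672, 585 and 509 CPM in the col1-ACLP libraries, against 244, 236 and 239.6 CPM in the col1 libraries. The col1 libraries were nearly equal, within a factor of 1.03, while the col1-ACLP libraries spread over a factor of 1.32 and all lay above them. The mean was 589 ± 81.6 CPM on col1-ACLP and 239.9 ± 4.09 CPM on col1 (SD, n = 3 each), a log2 fold change of 1.29 ± 0.11 (interval 1.07 to 1.52) or 2.45-fold. Leaving out each library in turn moved the log2 value only between 1.19 and 1.39. Periostin supports collagen crosslinking and cell migration in healing tissue.

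Tgfbi (ENSMUSG00000035493, chr13:56757336-56787375, plus strand, 17 exons) had 77.5, 73.0 and 63.0 CPM on col1-ACLP, against 58.3, 50.1 and 63.8 CPM on col1. Replicate 3 of col1-ACLP was below replicate 3 of col1, so the groups overlapped. The log2 fold change was 0.31 ± 0.12 (interval 0.05 to 0.57), which was not called. To set levels of different genes side by side, they were divided by the gene length given in the count table. That length need not be that of the transcripts made, so ratios, order and shares across genes depend on it. On that scale the ratio of Postn to Tgfbi was 3.76, 3.48 and 3.50 on col1-ACLP, against 1.82, 2.04 and 1.63 on col1. The ranges of that ratio did not overlap, so the balance of the fasciclin pair lay further toward Postn in each col1-ACLP library.

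Tenascin C and fibronectin are large multidomain glycoproteins that share fibronectin type III repeats. Tenascin C is made around injuries and weakens cell adhesion to fibronectin, while fibronectin is the main ligand of α5β1 integrin. Tnc (ENSMUSG00000028364, chr4:63878022-63965252, minus strand, 26 exons) had 238, 175.5 and 184.5 CPM on col1-ACLP, against 105, 99.9 and 118.5 CPM on col1. Every col1-ACLP library lay above every col1 library, with replicate 1 of col1-ACLP the highest. Its log2 fold change was 0.89 ± 0.12 (interval 0.63 to 1.15), 1.85-fold, and stayed between 0.74 and 0.97 with each library left out. A gene on the other strand, 8030451A03Rik, overlaps Tnc with 0.293% as many counts, and whether counting used strand is not given in the sources used here.

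Fn1 (ENSMUSG00000026193, chr1:71624679-71692359, minus strand, 46 exons) had 2053, 1239 and 1314 CPM on col1-ACLP, against 1039, 1087 and 983 CPM on col1. The groups did not overlap, but replicate 1 of col1-ACLP stood far above the other libraries of its group, which spread over a factor of 1.66 compared with 1.11 on col1. The mean was 1535 ± 449.9 CPM on col1-ACLP and 1036 ± 52.1 CPM on col1 (SD, n = 3 each), and the log2 fold change of 0.57 ± 0.15 (interval 0.26 to 0.88) was not called. Without replicate 1 of col1-ACLP it was 0.30, and without replicate 2 of col1-ACLP it was 0.70, past both thresholds. DESeq2, limma-voom and edgeR with no filter on low counts gave 0.56, 0.53 and 0.57, past the adjusted p but not the fold threshold. That single library also set the ratio of Sparc to Fn1 per length, which was 8.60, 12.2 and 12.5 in the col1-ACLP libraries, against 13.9, 12.4 and 12.9 in the col1 libraries. The ratio of Tnc to Fn1 was 0.174, 0.213 and 0.211 on col1-ACLP, against 0.152, 0.138 and 0.181 on col1, with overlapping ranges.

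Thrombospondins 1 and 2 are trimeric proteins that bind CD36 and CD47 and restrain vessel growth. Thrombospondin 1 can also release TGFβ from its latent complex, and thrombospondin 2 lacks the sequence for this. Thbs1 (ENSMUSG00000040152, chr2:117942357-117957614, plus strand, 22 exons) had 529, 540.2 and 548 CPM on col1-ACLP, against 265.5, 532 and 389 CPM on col1. The col1-ACLP libraries agreed within a factor of 1.04, the narrowest spread of any of the 10 genes in either group bar Postn on col1, whereas the col1 libraries differed by a factor of 2.00 and the highest of them reached the col1-ACLP range. The log2 fold change of 0.45 ± 0.17 (interval 0.09 to 0.80) was not called and depended on the col1 libraries, being 0.71 ± 0.14 and past both thresholds without col1 replicate 2 and 0.23 without col1 replicate 1.

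Thbs2 (ENSMUSG00000023885, chr17:14885762-14914497, minus strand, 22 exons) had 209, 184 and 191 CPM on col1-ACLP, against 175.5, 162 and 178 CPM on col1. The groups were just apart and their spreads were alike. The log2 fold change was 0.18 ± 0.10, the smallest of the set, with an interval of -0.03 to 0.39 that includes no difference. Per length, Thbs1 exceeded Thbs2 by 2.92, 3.39 and 3.31-fold in the col1-ACLP libraries, against 1.75, 3.79 and 2.52-fold in the col1 libraries. The col1 range enclosed that of col1-ACLP, so no shift in the balance of the pair was detectable with these libraries.

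SPARC, Smoc1 and Smoc2 share an extracellular calcium-binding domain and a follistatin-like domain. SPARC binds collagen and is needed for orderly fibril formation, and the SMOC proteins act near basement membranes on growth factor signaling. Sparc (ENSMUSG00000018593, chr11:55285326-55314009, minus strand, 10 exons) had 5725, 4886 and 5333 CPM on col1-ACLP, against 4673, 4370 and 4099 CPM on col1. The groups did not overlap, though the lowest col1-ACLP library was close to the highest col1 library. Its log2 fold change was 0.28 ± 0.09 (interval 0.08 to 0.47), 1.21-fold, and was not called. The means were 5315 ± 419.5 CPM on col1-ACLP and 4381 ± 287.5 CPM on col1 (SD, n = 3 each).

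Smoc2 (ENSMUSG00000023886, chr17:14499768-14625052, plus strand, 13 exons) had 86.4, 80.8 and 76.3 CPM on col1-ACLP, against 37.2, 41.0 and 47.1 CPM on col1. No library of either group came near the other group. Its log2 fold change was 0.96 ± 0.12 (interval 0.71 to 1.21), 1.94-fold, and lay between 0.88 and 1.04 with each library left out. Smoc1 (ENSMUSG00000021136, chr12:81073582-81233188, plus strand, 13 exons) had 10.1, 10.7 and 6.84 CPM on col1-ACLP, against 7.58, 6.99 and 7.44 CPM on col1. Its lowest library was a col1-ACLP one, so the groups overlapped, and the log2 fold change of 0.33 ± 0.20 had an interval of -0.10 to 0.76. The ratio of Smoc2 to Smoc1 per length was 4.28, 3.80 and 5.61 on col1-ACLP, against 2.47, 2.95 and 3.18 on col1, without overlap.

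Smoc2 and Thbs2 are neighbors on chromosome 17, on opposite strands and 260.7 kb apart. The table lists 2 genes between them, of which 0 are protein-coding and 0 had enough counts to test. Of this pair Smoc2 was called raised and Thbs2 was not.

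Osteopontin is a phosphorylated adhesive protein and cytokine that binds αv integrins and CD44. Spp1 (ENSMUSG00000029304, chr5:104582984-104588916, plus strand, 7 exons) had 318, 436 and 286 CPM on col1-ACLP, against 221.5, 255 and 322 CPM on col1. The groups overlapped, with replicate 3 of col1 above replicates 1 and 3 of col1-ACLP, and both groups were variable, over a factor of 1.53 on col1-ACLP and 1.45 on col1. The log2 fold change of 0.38 ± 0.15 (interval 0.06 to 0.70) was not called and came to 0.18 without replicate 2 of col1-ACLP. Macrophages are a known source of this protein. The 14 macrophage markers summed to 1264, 1163 and 1089 CPM on col1-ACLP, against 1407, 1217 and 1361 CPM on col1, with overlapping ranges. Most of that sum was Gpnmb, at 434 CPM on col1-ACLP and 563 CPM on col1, and Lyz2, at 348.5 and 338 CPM. Single markers differed in which library held their highest value. The part of macrophages in the Spp1 values was not tested.

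**Figure D2:**
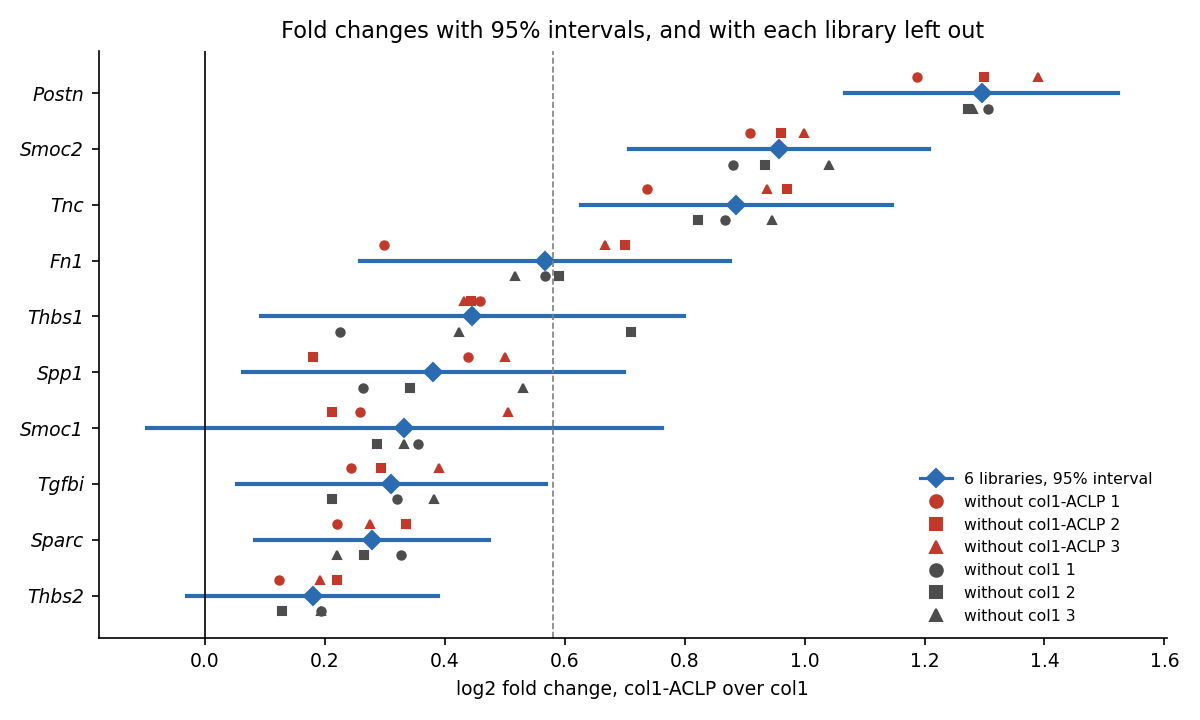
Log2 fold change of each gene, col1-ACLP over col1 (horizontal axis), with its 95% interval from 6 libraries (blue) and the value with each library left out (red, a col1-ACLP library left out; grey, a col1 library left out). The dashed line marks 0.58. Postn, Smoc2 and Tnc stay to its right throughout, Fn1 and Thbs1 cross it with single libraries, and the intervals of Smoc1 and Thbs2 include 0.

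Each col1-ACLP library lay above every col1 library for most of the 10 genes. Replicate 2 of col1-ACLP exceeded every col1 library for 10 genes, replicate 1 for 8 and replicate 3 for 7. The share of all tested genes that did so in a single library was not counted, so these counts cannot be judged against it. The median of the 10 log2 differences from the col1 mean was 0.47, 0.53 and 0.32 for col1-ACLP replicates 1, 2 and 3. The difference of Fn1 rested partly on col1-ACLP replicate 1 and that of Spp1 on replicate 2. Because the 10 genes were picked with this comparison known, higher values in each col1-ACLP library are a description of them.

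The genes differed far more in level than in fold. Per kilobase of the length that the table gives for each gene, Sparc averaged 1403 ± 110.8 CPM per kilobase on col1-ACLP and 1156 ± 75.9 on col1 (SD, n = 3 each), ranking 27 among the tested genes on col1. Smoc1, at the other end, averaged 2.64 ± 0.60 CPM per kilobase on col1-ACLP and 2.1 ± 0.089 on col1. Postn averaged 67.6 ± 9.37 CPM per kilobase on col1-ACLP and 27.6 ± 0.471 on col1, in the middle of the set in both.

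On col1-ACLP the order per length, high to low, was Sparc, Spp1, Fn1, Thbs1, Postn, Thbs2, Tnc, Tgfbi, Smoc2 and Smoc1, and the library ranges of Spp1 and Fn1, and of Thbs2 and Tnc, overlapped. On col1 it was Sparc, Spp1, Fn1, Thbs1, Postn, Thbs2, Tgfbi, Tnc, Smoc2 and Smoc1, with overlap between Fn1 and Thbs1 and between Tgfbi and Tnc. All other neighbors in each order were apart in every library. The only places to change were those of Tnc and Tgfbi. Tnc ranged from 22.6 to 30.6 CPM per kilobase on col1-ACLP, above the 16.7 to 20.6 of Tgfbi there, while on col1 it ranged from 12.8 to 15.2, within reach of the 13.3 to 16.9 of Tgfbi.

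**Figure D3:**
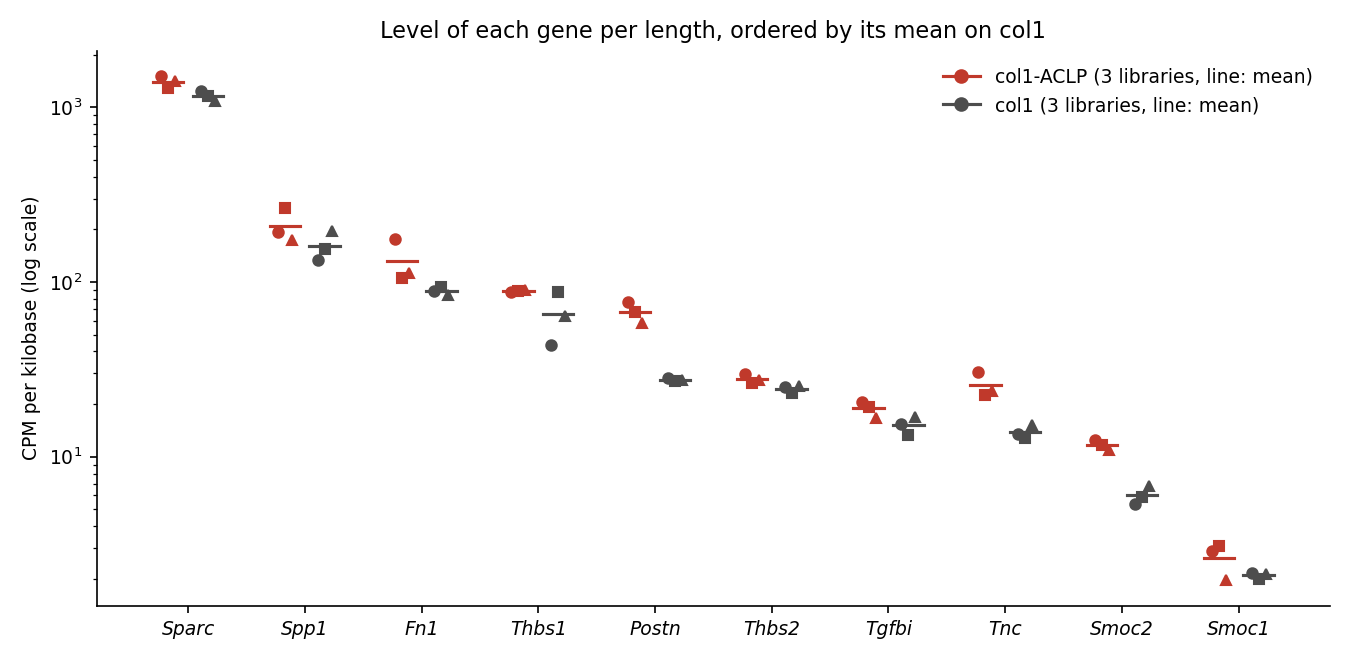
Level of each gene in CPM per kilobase on a log axis, in 3 col1-ACLP libraries (red, left in each pair) and 3 col1 libraries (grey, right), with lines for means and genes in order of their col1 mean. Levels run from 1403 (Sparc) to 2.64 (Smoc1) on col1-ACLP, and Tnc passes Tgfbi on col1-ACLP.

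Summed over the 10 genes, the level was 2140, 1900 and 1923 CPM per kilobase on col1-ACLP, against 1590, 1573 and 1520 on col1. Sparc made up most of it, at 70.6% ± 2.66 on col1-ACLP and 74.0% ± 3.25 on col1 (SD, n = 3 each), with overlapping libraries. Postn took 3.61%, 3.54% and 3.04% of the sum on col1-ACLP, against 1.76%, 1.72% and 1.81% on col1. The share of Postn was thus higher in each col1-ACLP library even though the sum itself was larger there. Tnc took 1.29% ± 0.13 on col1-ACLP and 0.89% ± 0.10 on col1, and Smoc2 took 0.588% ± 0.022 on col1-ACLP and 0.386% ± 0.055 on col1. The share of Thbs2 went the other way, with 1.40% ± 0.018 on col1-ACLP and 1.57% ± 0.10 on col1. Its own level was not lower, at 195 CPM on col1-ACLP and 172 CPM on col1. The shares of Tgfbi, Spp1, Fn1, Thbs1 and Smoc1 overlapped between groups. Per length, Sparc exceeded Postn by 19.6, 19.2 and 24.1-fold in the col1-ACLP libraries, against 44.0, 42.5 and 39.3-fold in the col1 libraries.

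Beyond these 10, 35 other matricellular and adhesive glycoprotein genes were looked up, and 28 had enough counts to test. By edgeR's quasi-likelihood test 0 were called, with 14 at an unadjusted p under 0.05, a level that 14.9% of all tested genes reached. DESeq2 called 1 (Vwa1, 13.2 ± 2.81 CPM on col1-ACLP and 20.5 ± 2.96 CPM on col1) and limma-voom 0. Their log2 fold changes were split evenly, 14 above 0 and 14 not, with a median of -0.08 and a range of -0.63 to 0.80, and 5 had groups apart with col1-ACLP higher and 8 with col1-ACLP lower, where 10.2% of all tested genes did in each direction. The median depended on the filter, being 0.13 over 34 genes with no filter on low counts.

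The group held abundant genes on both sides of 0. Fbln2, a fibulin of elastic and basement membrane matrix, averaged 1811 ± 283.4 CPM on col1-ACLP and 1262 ± 162.6 CPM on col1, a log2 fold change of 0.52 ± 0.12 (edgeR adjusted p = 0.0304, short of the fold threshold and past it without col1 replicate 1 or without col1-ACLP replicate 2). Srpx2, a secreted sushi-repeat protein, averaged 155 ± 8.36 CPM on col1-ACLP and 113 ± 5.09 CPM on col1 (0.45 ± 0.10, adjusted p = 0.0244). Fstl1, a SPARC-family glycoprotein, had 1686, 1376 and 1545 CPM on col1-ACLP, against 1187, 1171 and 1225 CPM on col1 (adjusted p = 0.0646). Lgals3, the galactoside-binding lectin galectin 3, averaged 563 ± 49.1 CPM on col1-ACLP and 679 ± 32.99 CPM on col1, and Tnxb, a tenascin of mature connective tissue, 115 ± 14.8 CPM on col1-ACLP and 147 ± 4.73 CPM on col1. Their log2 fold changes were -0.27 ± 0.10 and -0.36 ± 0.11 (adjusted p = 0.185 and 0.106), so the tenascin genes Tnc and Tnxb had opposite signs, though only Tnc was called. Fbln2, Srpx2, Fstl1, Tnxb and Vwa1 were named after their values were seen. Igfbp7, a secreted insulin-like growth factor binding protein, and Lgals1, the lectin galectin 1, which with Lgals3 had the highest levels per length of the group on col1, had log2 fold changes of 0.25 ± 0.09 and 0.20 ± 0.11 and were not called.

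Receptors of these proteins on the cell surface were looked up too. Of 17 integrin and other receptor genes, all tested, edgeR, DESeq2 and limma-voom each called 0, where edgeR called 0.66% of all tested genes raised and 0.722% lowered, so that few calls would be made among 17 genes at that rate. An unadjusted p under 0.05 was reached by 7 in edgeR, against 14.9% of all tested genes, and 12 had log2 fold changes above 0 (median 0.07). Itga5, the fibronectin receptor subunit that pairs with Itgb1, had 505.5, 493 and 470 CPM on col1-ACLP, against 377, 360 and 346 CPM on col1. Its groups were apart and its log2 fold change was 0.44 ± 0.09 (edgeR adjusted p = 0.0189), under the fold threshold. Itgb1 itself averaged 885 ± 45.9 CPM on col1-ACLP and 766 ± 70.0 CPM on col1 (0.21 ± 0.10, adjusted p = 0.333). The thrombospondin receptors Cd36 and Cd47 had log2 fold changes of -0.07 and -0.24, and Cd44, a receptor for osteopontin, 0.05, with adjusted p of 0.852, 0.239 and 0.90. Calr, calreticulin, averaged 1704 ± 271.2 CPM on col1-ACLP and 1542 ± 85.0 CPM on col1, and Sdc4, the syndecan 4 proteoglycan that binds fibronectin, 399.6 ± 28.7 CPM on col1-ACLP and 449 ± 49.1 CPM on col1, and for each gene the groups overlapped. The outlying value of -1.89 in this group belonged to Itgb6, at 1.40 CPM or less in every library. Of the genes in this paragraph Itga5, Cd36, Cd47, Cd44 and Itgb6 were named after their values were seen.

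Several of the 10 genes are textbook targets of TGFβ, so genes of that pathway were set beside them. Whether the pathway had a part in the values of the 10 genes was not tested. Of 16 ligand, receptor, latency and feedback genes, all tested, 4 rose (Tgfb3, Skil, Pmepa1 and Ltbp2) and 0 fell by both thresholds, where 0.66% of all tested genes were called raised. The median log2 fold change was 0.28. Pmepa1, a feedback inhibitor of TGFβ signaling, had 243.6, 247.7 and 228 CPM on col1-ACLP, against 125, 122 and 144 CPM on col1. The groups were far apart, with a log2 fold change of 0.88 ± 0.10 (edgeR adjusted p = 0.000147). Skil, a SMAD corepressor, Ltbp2, a latent TGFβ binding protein family member of elastic fibers, and the ligand gene Tgfb3 had log2 fold changes of 0.72, 0.68 and 0.69. Their adjusted p were 0.011, 0.0051 and 0.011.

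The remaining 12 genes were not called. Tgfb1 averaged 135 CPM on col1-ACLP and 123 CPM on col1 (adjusted p = 0.642), and Smad7, an inhibitory SMAD, 52.1 CPM on col1-ACLP and 42.6 CPM on col1 (adjusted p = 0.334). Ltbp1, which tethers latent TGFβ to fibronectin-rich matrix, was lower, at 113 ± 8.79 CPM on col1-ACLP and 159.9 ± 3.31 CPM on col1 (-0.50 ± 0.10, adjusted p = 0.0132), short of the fold threshold. Tgfbr1, the type I receptor, was higher, at 101 ± 15.1 CPM on col1-ACLP and 70.6 ± 2.71 CPM on col1 with groups apart (0.51 ± 0.12, adjusted p = 0.0297), short of the fold threshold but past it without col1-ACLP replicate 2. These 4 were named after their values were seen. Tgfbr3, the coreceptor betaglycan, averaged 312 ± 19.1 CPM on col1-ACLP and 375 ± 21.4 CPM on col1 (-0.27 ± 0.10, adjusted p = 0.189). Leaving out col1-ACLP replicate 1 reduced the raised genes of this group to 2, Skil and Pmepa1.

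**Figure D4:**
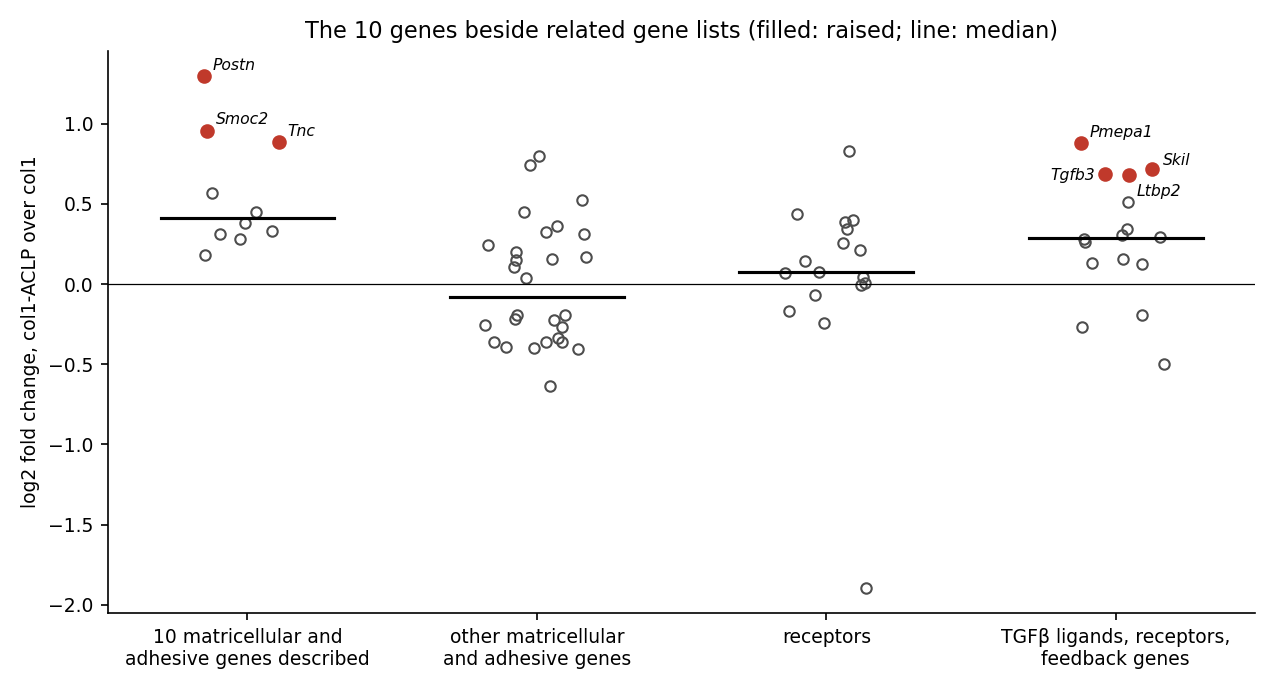
Log2 fold change, col1-ACLP over col1 (vertical axis), of each tested gene in 4 groups: the 10 genes described, 28 other matricellular and adhesive genes, 17 receptors and 16 TGFβ pathway genes. Filled red points were called raised, open points were not called, and lines are medians (0.41, -0.08, 0.07 and 0.28). Horizontal position within a group carries no meaning.

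By the rule for likeness to Postn, the sum over 6 libraries of squared differences in log2 level after each gene was centered on its mean over those libraries, the 5 genes nearest among 14121 with a mean of at least 1 CPM were Zfp469, Enpp3, Arg1, Cxcl14 and Has2. Zfp469, a zinc finger gene, had a sum of 0.0125 and 48.9, 39.4 and 34.2 CPM on col1-ACLP, against 17.03, 16.2 and 17.3 CPM on col1. The others had sums of 0.0570 (Enpp3, an ectonucleotide pyrophosphatase), 0.0578 (Arg1, arginase), 0.0791 (Cxcl14, a chemokine) and 0.0936 (Has2, a hyaluronan synthase). All 5 had their highest value in col1-ACLP replicate 1, the lowest of that group in replicate 3, and log2 fold changes of 1.17 to 1.37. They were picked by this pattern, which is therefore a description of them.

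Labels call the cells mesenchymal stem cells. Each of the 9 stromal progenitor markers was counted in every library, but their levels ranged widely, with Pdgfra at 894 CPM on col1-ACLP and 982 CPM on col1, Thy1 at 30.1 CPM on col1-ACLP and 41.6 CPM on col1, Dpp4 at 17.7 CPM on col1-ACLP and 21.4 CPM on col1, and Pi16 at 6.59 CPM on col1-ACLP and 14.7 CPM on col1. The 9 summed to 4397, 4097 and 4295 CPM on col1-ACLP, against 5815, 5918 and 6134 CPM on col1. Most of that difference lay in Ly6a, at 1344 CPM on col1-ACLP and 2159 CPM on col1, and Dcn, at 1479 CPM on col1-ACLP and 2200 CPM on col1. Pdgfrb went the other way, at 240.5 CPM on col1-ACLP and 196.5 CPM on col1 with groups apart, and Lum had a log2 fold change of -0.03. Of these 9, 3 fell by both thresholds (Pi16, Ly6a and Cd34, log2 fold changes of -1.16, -0.68 and -0.65) where 0.722% of tested genes were called lowered, and the median was -0.46. Markers of other cell types were counted in all libraries. The endothelial markers (8 genes) summed to 816 to 1016 CPM on col1-ACLP and 909 to 1066 CPM on col1. The mural markers (8) summed to 242 to 339 CPM on col1-ACLP and 235 to 248 CPM on col1. The adipocyte markers (5) summed to 252.5 to 368 CPM on col1-ACLP and 322 to 444 CPM on col1. Nearly all of that sum was Fabp4, which averaged 291 CPM on col1-ACLP and 363 CPM on col1. Adipoq averaged 1.61 CPM on col1-ACLP and 1.10 CPM on col1, and no adipocyte marker but Fabp4 averaged above 8.245 CPM in either group. The mesothelial markers (9) summed to 300.1 to 348 CPM on col1-ACLP and 306 to 408 CPM on col1. Of the endothelial, mural, adipocyte and macrophage markers 0 were called, of the mesothelial ones 1 was lowered (Upk3b), and lymphocyte markers summed to at most 0.724 CPM on col1-ACLP and 1.29 CPM on col1, with Ms4a1 at 0 throughout. The part of these cell types in the values of the 10 genes was not tested.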

How the data were processed

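RNA was measured in 6 libraries of primary stromal cells, prepared after polyA selection by a sequencing company. The authors deposited raw counts per gene, as whole numbers, from reads that the study's methods say HISAT2 mapped to GRCm39. Processing notes from the submitters give mm10. Of 56748 gene identifiers, 56017 were in the GENCODE vM39 annotation of GRCm39, 100% with the same chromosome and 92.01% with starts that differ by at most 1000 bases, so positions were read as GRCm39. The counting program, its use of strand and its handling of reads with several matches are not given in any source used here.

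Columns were tied to libraries through the names in the labels, with 0 other per-sample columns. Replicates of a group differed beyond sampling noise (chi-square per degree of freedom 24.55 to 70.08), so each counted as 1. Genes were filtered with filterByExpr (minimum count 10, minimum total 15), normalized by TMM and tested two-sided with edgeR 4.0.16 (glmQLFit, glmQLFTest, R 4.3.3), with Benjamini-Hochberg adjustment over all tested genes and the study's thresholds of 0.05 and 0.58. The study itself used DESeq2. Counting floors cover counting error only. The code was tested on simulated data. In the TGFβ list 1 gene is not reported here, and its counts and medians leave that gene out. The 10 genes and all gene lists were chosen with earlier results of these data known, and so were the rules for named genes: called members of a list and its 3 most abundant genes, and the 5 genes nearest to Postn. Alternatives were DESeq2 1.42.0, limma-voom (limma 3.58.1), DESeq2 size factors, library totals, no filter, other fold thresholds, a replicate block and each library left out. Promoter windows come from RefSeq (GRCm38.p6) and were placed in GRCm39 by exact match.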

Additional observations from a re-analysis of the deposited data

How the results depend on the processing

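Of 120 fold changes of the 10 genes under 12 alternatives, 118 kept direction and call, 0 reversed and 2 became called: Thbs1 without col1 replicate 2 (0.71) and Fn1 without col1-ACLP replicate 2 (0.70). Postn, Tnc and Smoc2 were raised by edgeR, DESeq2 and limma-voom, and the count of 3 was 1 (Postn) at a log2 threshold of 1 and 3 to 4 with each library left out. Calls over all genes were 245, against 389 with no filter, 76 at the threshold of 1, 358 by DESeq2 and 148 to 289 with each library left out. The other matricellular genes gave 0 calls, 1 with no filter, 1 by DESeq2 and 0 to 1 with each library left out, and the TGFβ genes 4 calls, 2 to 5 with each library left out. The median over all genes shifted to at most -0.03 under any scaling.

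Replicate numbers are shared between the groups. Deviations of same-numbered libraries from their group mean correlated at -0.0183, -0.0105 and -0.0295, and those of differently numbered ones at -0.0226 to 0.0452. So few libraries per group cannot decide whether same-numbered ones were paired. With a replicate block 194 genes were called, and of the 10 genes the same 3 were raised.

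The 95% intervals of Smoc1 and Thbs2 include 0. Fold changes of Smoc1 carry the largest counting error of the set.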
